A study of Mus musculus with 22 samples.

Results

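The 10 genes studied here are grouped as negative feedback genes of the ERK pathway, although Dusp1 and Dusp10 act mainly on p38 and JNK. They were measured in FE1 lung epithelial cells exposed to carbon nanotubes. They are 5 dual-specificity phosphatases (Dusp1, Dusp4, Dusp5, Dusp6 and Dusp10), 3 Sprouty genes (Spry1, Spry2 and Spry4) and 2 Sprouty-related genes (Spred1 and Spred2). The members were taken by name, through the RefSeq accession that the array design gives each probe, and they are 10 of 20018 genes that could be named. Each was read by 1 probe printed in 1 spot per array, so no second probe checked any of them. FE1 is a spontaneously immortalised epithelial line from the lung of a Muta(TM)Mouse, a transgenic strain that carries a lacZ reporter, and every group was this same line. All cells grew in medium with fetal bovine serum and murine epidermal growth factor (EGF), which itself activates the EGF receptor and ERK, so the controls were growth factor treated too.

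The groups were control cells with no particles (5 arrays) and cells given Mitsui7, a long multi-walled carbon nanotube, for 24 h. The low dose group had 6 arrays at 12.5 µg/ml, the medium dose group 5 arrays at 25 µg/ml and the high dose group 6 arrays at 100 µg/ml. On each of the 22 two-colour arrays the sample carried the dye Cy5 and Universal Mouse Reference RNA, a pool from 11 mouse cell lines, carried Cy3. A level is given as log2(Cy5/Cy3), the log2 ratio of the sample to that pool, and a change is the difference in this ratio between groups after adjustment for the array slide. The labels describe individual exposures made on several experiment days but do not tie a sample to a day. A change was called when limma's Benjamini-Hochberg adjusted p over all 55681 probes did not exceed 0.05, the size reached 1.5-fold, and 4 or more arrays of either group held the probe above the negative control spots.

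Between 23688 and 39139 probes were detected per array, and by their whole profile 16 of 22 arrays lay nearest to the mean of their own group. Low dose replicate 1 and high dose replicate 6 lay nearest to the medium dose, medium dose replicate 2 and high dose replicate 2 nearest to the low dose, and medium dose replicates 1 and 5 nearest to the high dose. Leaving out low dose replicate 1 and medium dose replicate 2 together lost 1 call among the feedback genes, Dusp5 at the medium dose (limma adjusted p = 0.0524). Across all probes 415 were called higher and 602 lower at the low dose, and 1078 higher and 1370 lower at the high dose. With each array centred on its median in place of loess, the split was 65 higher and 376 lower at the low dose and 382 higher and 932 lower at the high dose, and the median change of the 22915 widely detected probes at the low dose was -0.12 in place of -0.0073. Markers of the labelled cell type were read in part. The E-cadherin gene Cdh1 was detected on 0 arrays, and the keratin genes Krt8 and Krt18 lay at log2 ratios of -4.35 ± 0.52 and -5.62 ± 0.38 (SD, n = 5) in the controls, far below the pool but still detected on all 22 arrays. Krt19 lay at -4.91 ± 0.57 in the controls and was detected on 21 arrays, and Epcam was detected on 10. The mesenchymal genes Col1a1 and Col1a2 were also detected, above the pool in the controls at 1.77 ± 0.22 and 1.26 ± 0.39 (SD, n = 5). The control means of the other mesenchymal markers were 1.02 for Acta2, -0.44 for Vim and -1.23 for Pdgfrb. Col1a1 and Col1a2 fell by 1.34 and 1.52 on the log2 scale at the high dose (limma adjusted p = 1.1e-05 and 1.77e-06). Of the 5 mesenchymal markers, 2, 3 and 3 were called lower at the low, medium and high dose. Their summed Cy5 signal spanned 127043 to 654098 in the control group, and 98189 to 416717, 203172 to 299578 and 137867 to 355395 in the groups of rising dose. The part of these shifts in the results that follow was not tested, and in bulk RNA fewer cells of a type and less RNA per cell cannot be told apart.

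Growth factor receptors signal through RAS, RAF and MEK to the kinase ERK, and ERK in turn induces the genes of its own inhibitors. Dual-specificity phosphatases act at the bottom of the cascade and remove the activating phosphates from the threonine and tyrosine of ERK or of the stress kinases JNK and p38. Sprouty and Spred proteins act further up, between the receptor and RAF, and transcripts of both kinds are widely used as readouts of ERK activity in epithelial cells.

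Phosphatase genes rose, and no Sprouty or Spred gene was called. At the low dose 3 of the 10 members (Dusp1, Dusp4 and Dusp6) were called higher, against 1.35% of the probes tested. At the medium dose Dusp5 and Dusp10 joined them to make 5 of 10, against 2.72%, and at the high dose 4 of 10 were called higher (all but Dusp10 among these 5), against 3.34%. Against a background of 1.96%, 2.97% and 4.24% of probes called lower, limma called 0 members lower at the 3 doses, and 0 were lower even at an unadjusted p under 0.05. Dusp1, Dusp4 and Dusp6 were called higher at all 3 doses, which held for 1.23% of the probes detected at all 3 doses. Every array of the dose lay above every control for 2 members at the low dose (1.43% of probes), 3 at the medium dose (3.23%) and 3 at the high dose (3.44%). The median change of the 10 members was 0.36, 0.49 and 0.48 on the log2 scale at the low, medium and high dose. That of all probes was 0.0027, 0.0017 and 0.0023, which the loess step holds near 0 by construction. The plot of every array shows the 10 members side by side.

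**Figure D1:**
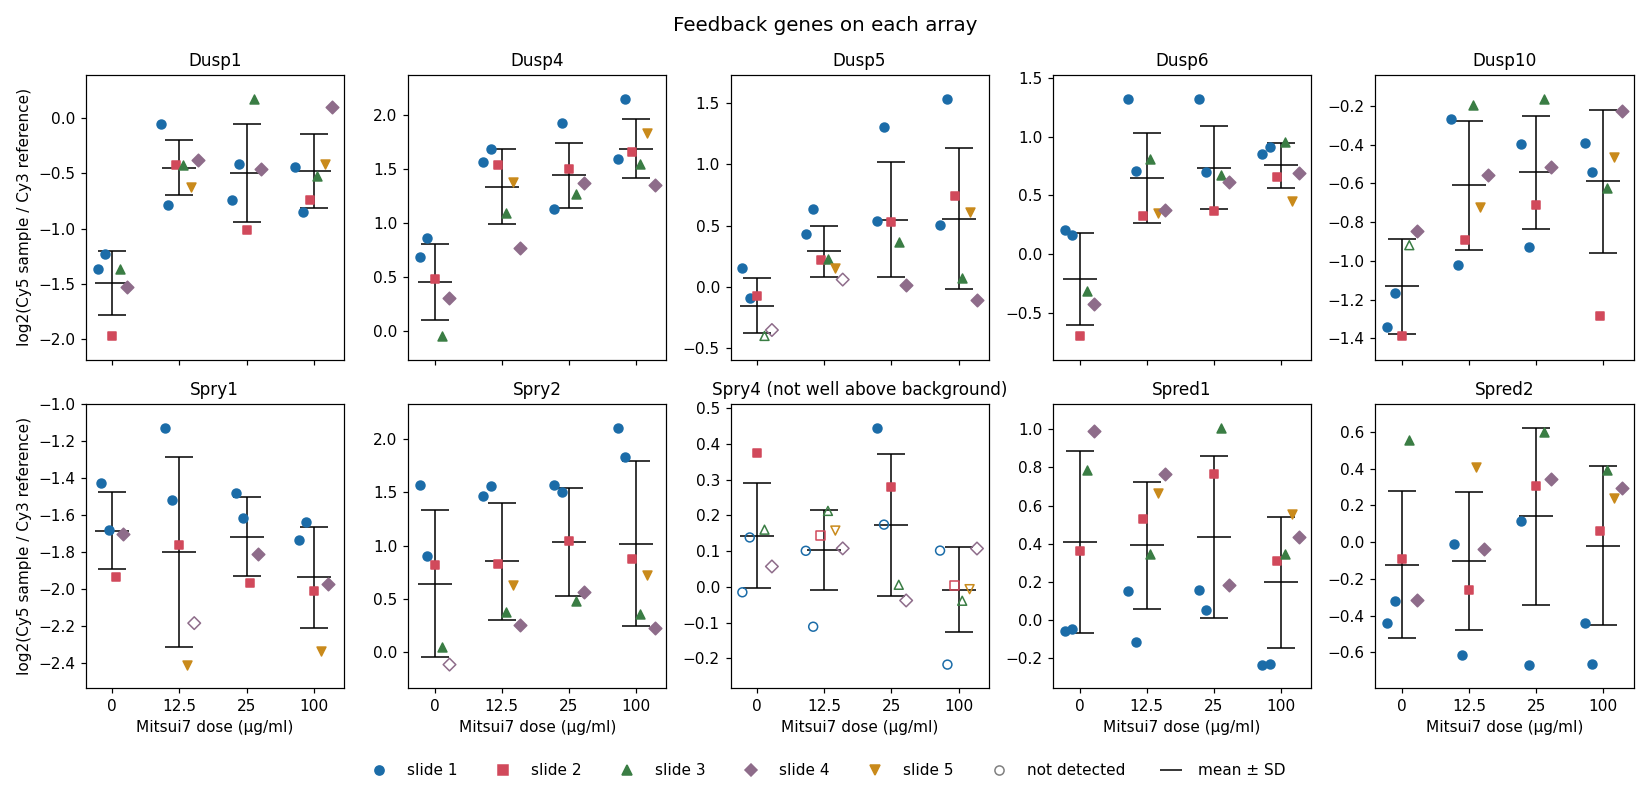
Level of each feedback gene on each of the 22 arrays, as log2(Cy5 sample / Cy3 reference), against the Mitsui7 dose in µg/ml. Each mark is 1 array, its shape and colour give the slide, open marks were not detected above the negative controls, and black bars give the mean ± SD of the group. All 17 exposed arrays of Dusp1 and of Dusp6 lie above all 5 controls, whereas Spred1 follows the slide more than the dose.

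The upstream sequences of Dusp1, Dusp5 and Dusp6 are shown because the first 2 held motif matches and Dusp6, called at every dose, held none. They come from the RefSeq promoter table (build GRCm38.p6), in which 8 of the 10 members were matched. Each runs 5′ to 3′ over the 200 bases before the transcription start, with motif matches in capitals:
Dusp1, chr17:26508473-26508672, minus strand: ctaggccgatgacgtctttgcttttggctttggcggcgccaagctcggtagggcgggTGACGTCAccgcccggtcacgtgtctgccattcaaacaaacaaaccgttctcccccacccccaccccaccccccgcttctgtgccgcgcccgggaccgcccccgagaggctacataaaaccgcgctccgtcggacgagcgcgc
Dusp5, chr19:53528945-53529144, plus strand: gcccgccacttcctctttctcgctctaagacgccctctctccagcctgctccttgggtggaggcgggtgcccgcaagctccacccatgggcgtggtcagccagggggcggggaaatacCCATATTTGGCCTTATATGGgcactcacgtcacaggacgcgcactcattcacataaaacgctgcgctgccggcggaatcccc
Dusp6, chr10:99263031-99263230, plus strand: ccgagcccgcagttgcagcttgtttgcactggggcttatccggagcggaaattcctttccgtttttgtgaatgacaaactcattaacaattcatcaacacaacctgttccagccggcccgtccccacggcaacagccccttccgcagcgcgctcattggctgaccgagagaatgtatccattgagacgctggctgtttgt
Motifs that bind factors downstream of growth factor and stress kinases were searched on both strands from 250 bases before to 50 after each start. They were the cyclic AMP response element (TGACGTCA, bound by CREB and ATF factors), the AP-1 site (TGANTCA), an ETS site (CCGGAAGT) and the CArG box of serum response factor. Dusp1 held 1 response element, which begins 143 bases upstream, and 1.79% of the 32851 promoters in the table held at least 1. Dusp5 held 2 CArG boxes, side by side at 82 and 72 bases upstream, against 1.63% of promoters with at least 1. Dusp6 held none of the 4 motifs in this window, and neither did Dusp10, Spry1, Spry2, Spred1 or Spred2. The AP-1 and ETS letters, found in 7.81% and 3.89% of all promoters, were in none of the 8 windows. Matches are letters only, and binding was not measured.

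Dusp1 encodes a nuclear phosphatase that acts mainly on p38 and JNK, and also on ERK. Its level in the 5 controls was -1.97, -1.53, -1.37, -1.36 and -1.23, that is, below the reference pool throughout. At the low dose the 6 arrays ran from -0.79 through a median of -0.43 to -0.051. At the medium dose the 5 arrays were at -1.02, -0.74, -0.46, -0.42 and 0.17, and at the high dose the 6 arrays ran from -0.85 through -0.48 to 0.10. Every exposed array was above every control. The change from control was 1.05 ± 0.17 (SE) at the low, 1.00 ± 0.18 at the medium and 1.02 ± 0.17 at the high dose, with limma adjusted p of 0.00094, 0.00115 and 0.000439. These are 2.08-fold, 2.00-fold and 2.03-fold increases. The lowest and the highest concentration gave like levels: the high minus the low dose was -0.030, with a 95% interval from -0.37 to 0.31. With median centring, the call was lost at the low dose (limma adjusted p = 0.15) and at the medium dose (0.0681).

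Dusp4 encodes a nuclear phosphatase for ERK and JNK that is itself an ERK-induced gene. Its level was -0.045, 0.30, 0.48, 0.68 and 0.86 in the controls. It ran from 0.77 through a median of 1.46 to 1.69 at the low dose, stood at 1.13, 1.26, 1.38, 1.501 and 1.93 at the medium dose, and ran from 1.35 through 1.63 to 2.15 at the high dose. All exposed arrays were above all controls except low dose replicate 6, which shares slide 4 with a control at 0.30. The change was 0.86 ± 0.14 (SE), 0.98 ± 0.14 and 1.21 ± 0.14 on the log2 scale with rising dose, for which limma gave adjusted p of 0.000866, 0.000166 and 6.34e-06. The high dose exceeded the low dose by 0.35, with a 95% interval from 0.080 to 0.62 and an unadjusted p of 0.0138, but limma's adjusted p over all probes was 0.405. The steps from low to medium (0.12) and from medium to high (0.23) did not pass the test either.

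Dusp6 encodes the cytoplasmic phosphatase that is selective for ERK. The controls were at -0.70, -0.43, -0.32, 0.16 and 0.21, with the 2 arrays of slide 1 on top. Levels ran from 0.33 through 0.54 to 1.32 at the low dose, were 0.37, 0.62, 0.67, 0.70 and 1.32 at the medium dose, and ran from 0.45 through 0.77 to 0.96 at the high dose. Every exposed array was again above every control. The change was 0.92 ± 0.13 (SE), 0.95 ± 0.13 and 1.03 ± 0.13 (limma adjusted p = 0.000148, 7.84e-05 and 1.3e-05), or 1.89-fold, 1.93-fold and 2.04-fold. Its high minus low dose difference was 0.11, with a 95% interval from -0.14 to 0.35. Median centring left changes of 0.78, 1.07 and 0.99, with adjusted p of 0.304, 0.0856 and 0.0689, so its calls were lost at every dose under that setting.

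Dusp5 encodes a nuclear phosphatase specific for ERK, and its probe was dim. It was detected on 19 arrays and well above the local background on 16 of them. The control levels were -0.40, -0.35, -0.095, -0.078 and 0.15, and those of the low dose ran from 0.059 through 0.22 to 0.64. The medium dose gave 0.011, 0.37, 0.53, 0.54 and 1.30, and the high dose ran from -0.11 through 0.56 to 1.54. The groups overlapped, since 13 of the 17 exposed arrays were above the highest control. The change was 0.45 ± 0.17 (SE) at the low dose, which was not called (limma adjusted p = 0.187), and 0.70 ± 0.17 and 0.72 ± 0.17 at the medium and high dose, which were (0.0173 and 0.00823). Both calls were lost without the slide term (0.161 and 0.0852). The medium dose call was also lost without control replicate 2 or medium dose replicate 2 (0.0563 and 0.0503), and the high dose change was under 1.5-fold, at 0.56, without high dose replicate 2. On the scanner's own background-subtracted ratio the changes were larger, at 0.94, 1.499 and 1.41.

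Dusp10 encodes a phosphatase of p38 and JNK with little action on ERK. It was detected on 21 arrays. The controls were at -1.39, -1.34, -1.17, -0.92 and -0.84. The exposed arrays ran from -1.02 through -0.64 to -0.20 at the low dose, were -0.93, -0.71, -0.51, -0.40 and -0.16 at the medium dose, and ran from -1.29 through -0.50 to -0.22 at the high dose. The groups overlapped, with 13 of 17 exposed arrays above the highest control. Its 3 changes were close to one another and lay around the 1.5-fold limit, at 0.52, 0.59 and 0.54 with an SE of 0.15 each, and limma adjusted p was 0.057, 0.0227 and 0.0236. Dusp10 was therefore called at the medium dose alone, by 1.505-fold, and the call changed with many settings. It was lost there without control replicate 1 or 4 or without medium dose replicate 1, 3 or 4 (limma adjusted p from 0.0561 to 0.0818). It was made at the low dose without low dose replicate 2 (change 0.61) and at the high dose without high dose replicate 3 or 4 (0.65 and 0.62). The scanner's background-subtracted ratio gave 1.18, 1.34 and 1.39, called at all 3 doses.

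Since the slide carried part of the spread, each dose was also set against the controls of the same slide, for the 4 slides that held all groups. For Dusp1, Dusp4, Dusp5, Dusp6 and Dusp10 all 4 slides gave a positive difference at every dose. The smallest and largest of these were 0.65 and 1.63 for Dusp1, 0.46 and 1.59 for Dusp4, and 0.70 and 1.36 for Dusp6. They were 0.25 and 0.99 for Dusp5 and 0.10 and 0.79 for Dusp10. The slides did not share 1 order of the doses.

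**Figure D2:**
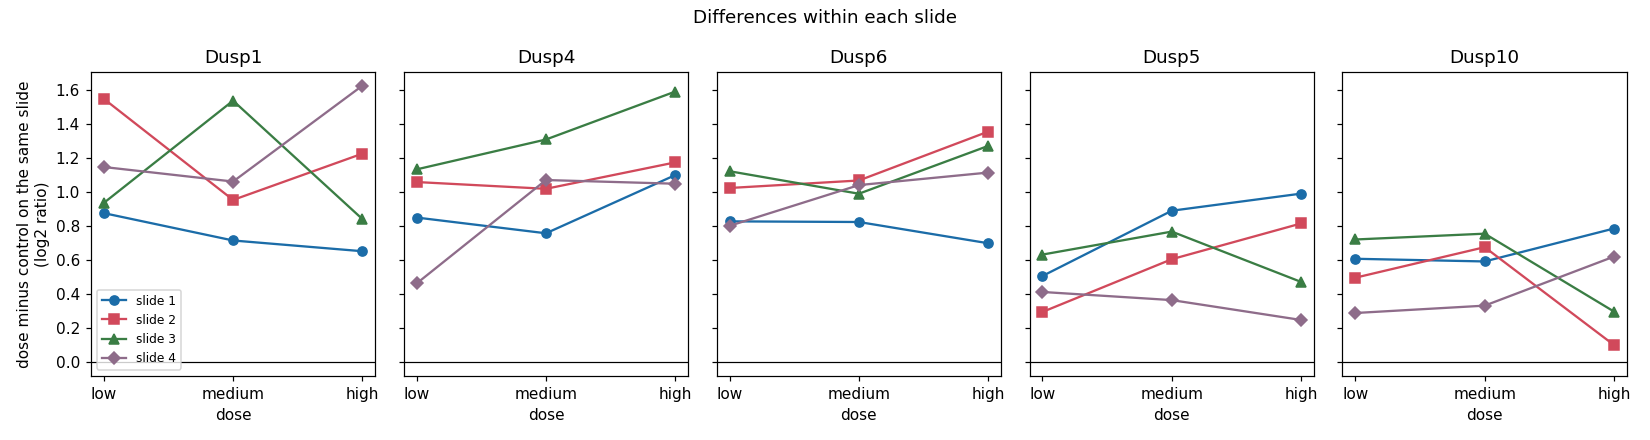
Difference between each dose and the controls on the same slide, on the log2 ratio scale, for the 5 phosphatase genes. Each line is 1 of the 4 slides that held all groups, and slide 1 held 2 arrays per group. All points lie above 0, from 0.10 (Dusp10, high dose) to 1.63 (Dusp1, high dose).

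The Sprouty genes encode membrane-associated proteins that block RAS and RAF activation by growth factor receptors. Spry2 had positive changes at all doses, except for -0.0035 at the low dose with median centring. It was detected on 21 arrays and ran from -0.12 through 0.82 to 1.57 in the controls, 0.26 through 0.73 to 1.56 at the low dose, 0.48 through 1.05 to 1.57 at the medium dose and 0.22 through 0.80 to 2.11 at the high dose. The groups overlapped almost wholly. After slide adjustment the change was 0.26 ± 0.13 (SE), 0.39 ± 0.13 and 0.43 ± 0.13 (limma adjusted p = 0.361, 0.0938 and 0.0376), and all 4 slides gave a positive difference at every dose. The high dose passed the p threshold at 1.34-fold, under the 1.5-fold limit, so Spry2 was not called. Its upper 95% bound at the high dose was 0.69, past the 1.5-fold limit of 0.58. On the scanner's background-subtracted ratio its changes were 0.39, 0.46 and 0.67 (limma adjusted p = 0.687, 0.577 and 0.303), and none was called.

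Spry1 was detected on 17 arrays and had no value on slide 3, where the scanner marked the spot as an outlier on all 4 arrays. Its level was -1.68 ± 0.21 (SD, n = 4) in the controls and -1.94 ± 0.27 (n = 5) at the high dose. The changes were 0.0098, -0.034 and -0.13, with 95% intervals inside -0.38 to 0.26, and the groups overlapped. The sign of these small changes turned under several settings. The Spry4 probe was not well above background on any array and was above the negative controls on 3, so no fold is given.

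Spred1 and Spred2 encode relatives of Sprouty that hold RAF inactive, Spred1 together with the RAS inhibitor neurofibromin. Both were detected on all 22 arrays. Spred1 ran from -0.056 through 0.36 to 0.99 in the controls and from -0.23 through 0.33 to 0.55 at the high dose, and its changes were -0.080, 0.027 and -0.27 (limma adjusted p = 0.865, 0.966 and 0.289). Within each of the 4 slides that held all groups, its high dose minus control difference was negative, from -0.56 to -0.051. The signs were mixed at the low and medium dose. Across all arrays its level separated by slide more than by dose: the 8 arrays of slide 1 lay between -0.23 and 0.16 and the 14 others between 0.18 and 1.01. Spry2 ran the other way, at 0.90 to 2.11 on slide 1 and -0.12 to 1.05 on the others. Spred2 changed by 0.046, 0.26 and 0.035 (limma adjusted p = 0.939, 0.472 and 0.959). Only 1 among 16 exposed arrays with a value was above the highest control. The 95% intervals at the high dose, -0.55 to 0.0029 for Spred1 and -0.28 to 0.35 for Spred2, held no increase of 1.5-fold.

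**Figure D3:**
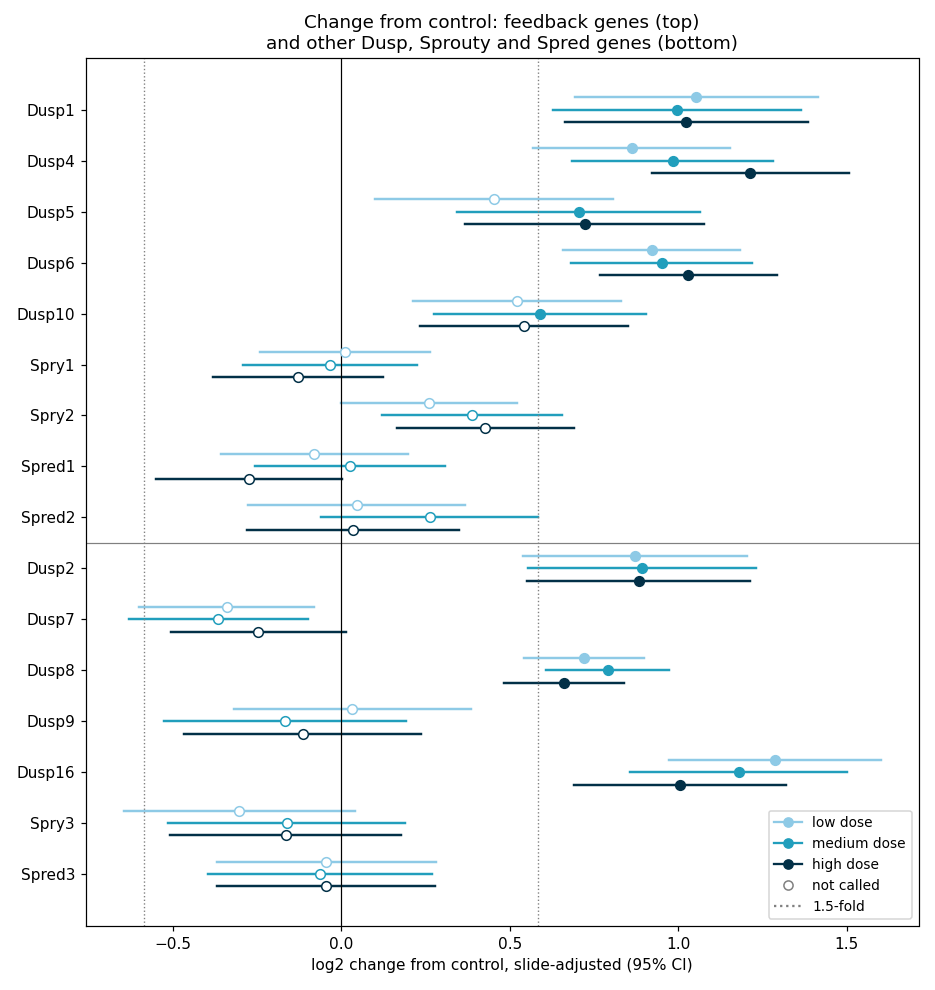
Change from control on the log2 ratio scale after slide adjustment, with 95% intervals, for 9 feedback genes (top) and the other measured genes of the same families (bottom), at the low, medium and high dose. Filled points were called, open points were not, and dotted lines mark 1.5-fold. The points of Dusp1, Dusp4 and Dusp6 lie between 0.86 and 1.21, and those of Spry1, Spred1 and Spred2 lie between -0.27 and 0.26.

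No member was called between doses. Across all probes 0.26% were called between the high and the low dose and 0% between the medium and the low or the high and the medium dose, so these comparisons had few calls anywhere. Before adjustment, limma's p was under 0.05 for Dusp4 (high against low) and for Spred1, whose high minus medium dose difference was -0.30 (adjusted p = 1). An ordinary linear model also called 0 members between doses.

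Of the 7 remaining genes of these families, 3 phosphatases were called higher at all doses, against 1.23% of the probes detected at all 3 doses. Dusp16, which acts on JNK and p38, changed by 1.29 ± 0.15 (SE), 1.18 ± 0.15 and 1.01 ± 0.15 (limma adjusted p = 2.62e-05, 5.15e-05 and 0.000127), but a dimmer second probe for it, detected on 15 arrays, gave 0.33, 0.31 and 0.33 and was not called. Dusp8, also a JNK and p38 phosphatase, changed by 0.72, 0.79 and 0.66 with an SE of 0.085 to 0.087. Dusp2, a nuclear phosphatase first known from activated lymphocytes, changed by 0.87, 0.89 and 0.88 and was below detection on 2 of the 5 controls. Dusp7, Dusp9, Spry3 and Spred3 were not called, with changes between -0.37 and 0.032. All 6 feedback or family genes called at every dose encode phosphatases, and they include both those that prefer ERK and those that prefer the stress kinases.

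Upstream of the feedback genes, 2 of 9 EGF receptor and ligand genes were called at each dose, both higher. Of all probes tested, 1.35%, 2.72% and 3.34% were called higher. Epiregulin (Ereg) changed by 0.84, 1.16 and 1.19 and heparin-binding EGF (Hbegf) by 0.76, 0.87 and 0.99 (limma adjusted p at the high dose 7.59e-05 and 2.79e-05). Hbegf had no value on 5 arrays, where its spot was marked as an outlier. The brightest probe of the receptor gene Egfr gave -0.12, -0.15 and -0.30, with no call, whereas 1 of its other probes was called lower at the high dose, at -0.63 (limma adjusted p = 0.00117). Of 19 cascade genes from adaptor to kinase, 0, 1 and 1 were called by limma, and 6, 4 and 5 had an unadjusted p under 0.05. Of the latter, 2 were higher at each dose and 4, 2 and 3 lower. Among all detected probes, 6525 of 30652, 7494 of 29722 and 8898 of 32283 had an unadjusted p under 0.05 with rising dose. The called gene was Sos2, an activator of RAS, at 0.66 and 0.69 at the medium and high dose. The MEK gene Map2k1, at 0.27, 0.13 and 0.15, was not called. Mapk3, which encodes an ERK kinase, changed by -0.34, -0.66 and -0.60 on its brightest probe and was not called. A second Mapk3 probe was called lower at the medium and high dose, at -1.43 and -1.52 (limma adjusted p = 0.0472 and 0.0203), and with the replicate number as a block the brightest probe was called at the medium dose as well (0.0421). Of 9 JNK and p38 kinase genes, Map2k6, which activates p38, was called lower at the medium and high dose (-0.60 and -0.65) and no other was called.

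Among 19 genes known to be induced by ERK, 5, 6 and 10 were called higher with rising dose, and 0, 1 and 1 lower. Of all probes tested, 1.35%, 2.72% and 3.34% were called higher and 1.96%, 2.97% and 4.24% lower. Junb, Egr1, Egr2, Egr3, Ier2, Phlda1, Etv1 and Epha4 were called at no dose. The median change of the 19 was 0.42, 0.35 and 0.62. Fosl1, the AP-1 subunit FRA1, changed by 2.01, 1.90 and 2.23, and Jun by 1.19, 1.45 and 1.58. Myc changed by 0.94, 1.497 and 1.45, and Ier3, an early response gene of cell survival, by 0.92, 1.40 and 1.16. Fos changed by 1.14, 0.98 and 1.09, and Plaur, the urokinase receptor, by 0.28, 0.99 and 1.04, called at the medium and high dose. The Fos probe was dim and was detected on 3 of the 5 controls. In the paper's RT-qPCR, Fos was lower at the low dose and higher at the medium and high dose. There Myc was higher at each of these doses and Jun at the medium and high dose. The remaining genes called in this list were named after their values were seen. Epha2, Etv4, Etv5 and Fosb were called higher at the high dose only, at 0.68, 0.62, 0.77 and 0.79, where Etv4 and Etv5 are ETS factors that respond to growth factor signalling. A second Etv4 probe, detected on all 22 arrays, gave 0.32, 0.19 and 0.21 and was not called. Ccnd1, the cyclin of G1 phase, was called lower at the medium and high dose, at -0.69 and -0.62. With the replicate number as a block, Etv5 was also called at the medium dose (limma adjusted p = 0.0376), and Fosb and Ccnd1 at the low dose (0.00872 and 0.00878).

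Of 13 other inhibitors of receptor and RAS signalling, 2, 1 and 1 were called, all higher. Errfi1, whose product MIG6 binds and inhibits the EGF receptor, changed by 1.29 ± 0.16 (SE), 1.34 ± 0.16 and 1.41 ± 0.16 (limma adjusted p = 6.25e-05, 2.87e-05 and 6.09e-06). Lrig1, which promotes breakdown of the receptor, was called on its brightest probe at the low dose (0.77), with 0.49 and 0.46 at the others, and on a second probe at all 3 doses (0.64, 0.67 and 0.61). Over the 6 lists of 76 pathway genes together, 12, 15 and 19 were called, of which 12, 13 and 17 were higher. The shares of all probes called higher were 1.35%, 2.72% and 3.34%. The median change at the high dose was -0.046 for the other family genes, 0.039 for EGF receptors and ligands, -0.093 for the cascade, -0.21 for JNK and p38 kinases, 0.11 for the other inhibitors and 0.62 for the induced genes. These medians include genes that were not detected. Over detected genes alone the median was 0.27 for EGF receptors and ligands (6 of 9 genes) and 0.65 for the induced genes, and that of the other lists was unchanged.

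**Figure D4:**
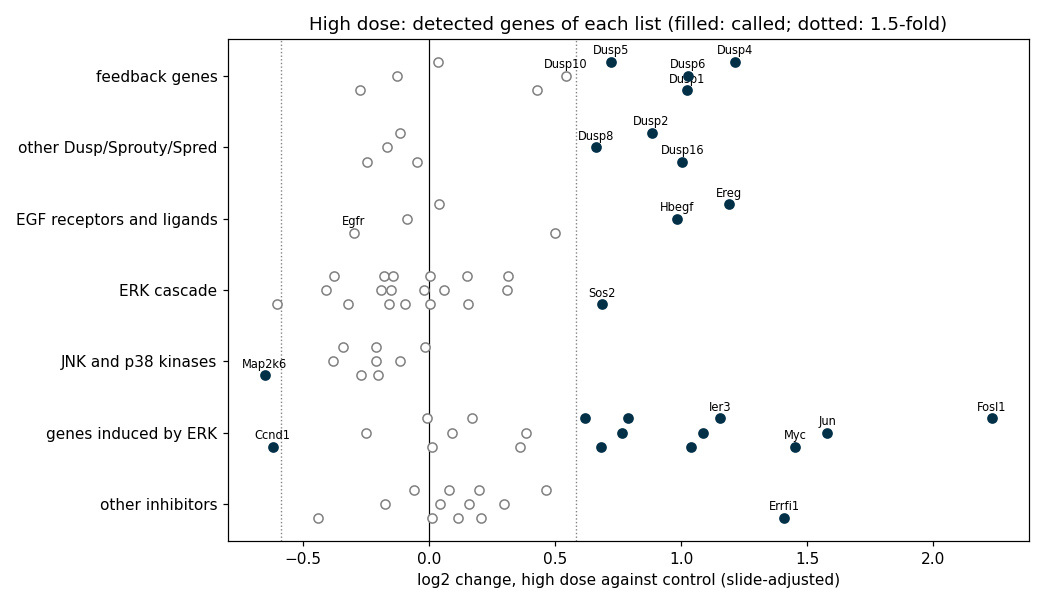
Change at the high dose against control, on the log2 ratio scale after slide adjustment, for the detected genes of each list; vertical spread within a list only separates points. Filled points were called and dotted lines mark 1.5-fold. The cascade and the JNK and p38 kinases have medians of -0.093 and -0.21 with 1 call each, Sos2 higher and Map2k6 lower. Each gene is shown by its brightest probe. The other lists hold called and uncalled genes. The called Dusp genes, the induced genes called higher and Errfi1 lie between 0.62 and 2.23, where the 1.5-fold rule itself bounds the lower end. Dusp10 (0.54), the Sprouty and Spred genes and some induced genes were not called, and Ccnd1 was called lower.

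For the 3 members called at every dose, the genes with the most similar pattern were found by the root mean square (RMS) difference of slide-adjusted, control-centred log2 ratios over 22 arrays, among 9875 widely detected genes. Among the closest to Dusp6 were Timm10 and Ifrd1 (RMS differences of 0.13 and 0.15). Dusp1 was followed most closely by Ivns1abp, Edn1 and Fhl2 (0.18, 0.20 and 0.20) and Dusp4 by Siglecg, Txnrd1 and Nbl1 (0.18, 0.21 and 0.21). Edn1 encodes the peptide endothelin and Txnrd1 a thioredoxin reductase. Among the same genes Dusp6 ranked at 15 and Dusp4 at 59 in likeness to Dusp1, Dusp6 at 36 and Dusp1 at 59 in likeness to Dusp4, and Dusp1 at 95 and Dusp4 at 139 in likeness to Dusp6. Dusp5 and Dusp10 ranked between 231 and 579 and Spry2 between 1062 and 1248, and Spry1, Spred1 and Spred2 ranked at 2867 or beyond for all 3. These distances share the arrays and their noise and are given without a test.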

How the data were processed

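The authors deposited one scanner file per array with median pixel intensity of Cy5 and Cy3 and a log10 ratio (Feature Extraction 10.7.3.1 and 3 µm pixels per the file headers), and a series matrix whose values behave as loess-normalized log2 ratios and which the authors did not label with a scale. All 22 matrix columns correlated best with their own array, and their medians were 0.0043 to 0.027.

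Here log2(Cy5/Cy3) of median intensity was taken without background subtraction and loess-normalized within each array, with 3671 control spots left out and spots marked as outliers set to missing. A probe was detected where Cy5 exceeded the 5% trimmed mean of 308 negative control spots by 3 SDs. One limma 3.58.1 model (R 4.3.3) held group and slide for all arrays, with Benjamini-Hochberg adjustment over 55681 probes. A gene with several probes was represented by the brightest. SEs, intervals and p treat each array as independent. The study describes 3 separate experiments to which no sample is tied, so arrays of the same experiment may share error not counted here. Dyes were not swapped, and a dye effect common to all arrays cancels between groups. Without background subtraction, changes of dim probes are understated.

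Members and lists were chosen with earlier results of these data known. From each list the text names genes called at 1 dose or more, up to 6 by size at the high dose, plus Egfr, Map2k1 and Mapk3. It also names the uncalled genes of the family and induced lists. Some genes that the rules for named genes select are not reported here. No probe was matched to Cd68, a leukocyte marker. No leukocyte or endothelial marker was called. Of the 5 epithelial and 4 alveolar type 2 markers 0 were called, and of 4 alveolar type 1 markers Hopx was lower at every dose.

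Replicate numbers in the labels were checked for pairing. In all 31 pairs of equal number the deviations from the group means correlated (0.197 to 0.796), and 27 of the pairs lay on the same slide. The deviations were not slide-adjusted and pairs of unequal number were not compared, so this cannot show whether the numbers pair the samples. No pairing is stated in the design. The replicate number served as a block in an alternative and not in the main model. The alternatives tried were other background corrections and scalings, the matrix, other slide and replicate terms, other thresholds, and each slide and array left out. The model was tested on simulated data with independent noise around the same group and slide terms. That test could not show the effect of error shared within an experiment.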

Additional observations from a re-analysis of the deposited data

Results flagged for a closer look

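Of 36 member-by-group sets of 4 to 6 arrays, 1 held an array far from the others, which is within the 1 in 20 that chance gives. Dusp10 at high dose replicate 3 was at a log2 ratio of -1.29, and the next array of its group at -0.62, a gap of 0.626 of the whole range of 6 arrays. These levels were not slide-adjusted, and the control on the same slide was the lowest control, at -1.39. After slide adjustment the array was at -0.98 and the next of its group at -0.90. Without high dose replicate 3 the change of Dusp10 at the high dose was 0.65 in place of 0.54, and it was called (limma adjusted p = 0.00945). The cause was not tested.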

How the results depend on the processing

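Dusp1, Dusp4 and Dusp6 kept their direction at every dose under every alternative and each left-out array, and the counts of members called between doses stayed at 0. Median centring took the feedback genes called to 1, 1 and 2 with rising dose and the pathway genes to 4 and 9 at the low and medium dose; adjusted p rose while the changes of Dusp1, Dusp4 and Dusp6 moved little, and the cause was not tested. A 2-fold threshold left 1 and 0 feedback genes at the low and medium dose, and 5, 7 and 9 pathway genes. At the medium dose 3 feedback genes were called with no slide term, with an ordinary linear model, without slide 2, without slide 3 and with detection on all arrays. Without slide 1 both counts at the medium dose were 0, because 3 arrays per group cannot meet the detection rule of 4; adjusted p there was 0.0095, 0.00103 and 0.00037 for Dusp1, Dusp4 and Dusp6. With each array left out in turn, feedback genes called ranged over 3 to 4, 4 to 5 and 3 to 5, and pathway genes over 12 to 13, 12 to 16 and 15 to 19.

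A replicate block instead of the slide gave 3, 5 and 4 feedback genes and 14, 17 and 19 pathway genes called. It changed no call of a feedback gene, and of the named pathway genes it changed the 4 calls given above (Mapk3, Etv5, Fosb and Ccnd1).

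Signs turned for changes near 0. Spry1 at the low dose was -0.047 with normexp, -0.074 with median centring, -0.24 on the scanner ratio, -0.12 with no slide term, -0.068 with slide as a random block, -0.063 with the replicate block, -0.17 and -0.039 without slides 1 and 2, and -0.0995 without low dose replicate 1 and medium dose replicate 2. At the medium dose it was 0.21 (scanner), 0.055 (matrix) and 0.064 (outlier spots kept), and at the high dose 0.062 and 0.067 (scanner, matrix). Spry2 at the low dose was -0.0035 with median centring. Spred1 at the low dose was 0.015 (matrix) and 0.0060 (without slide 3), and at the medium dose -0.060, -0.068 and -0.022 without slides 1, 2 and 3. Spred2 at the low dose was -0.026 (median centring), -0.018 (without slide 4) and -0.079 (without the same 2 arrays), and at the high dose -0.0998 without slide 4. The high minus low dose difference of Dusp1 was 0.081 (median centring), 0.066 (scanner), 0.067 and 0.029 (without slides 1 and 2) and 0.063 (without the 2 arrays). That of Dusp10 was -0.057, -0.041 and -0.026 without slides 1, 4 and 5. Etv5 at the low dose was -0.049 (without the 2 arrays), -0.032 (median centring) and -0.17 (without slide 1), and Plaur at the low dose -0.085 without slide 1.

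With single arrays left out, these low dose changes spanned 0: Spry1 (-0.10 to 0.13), Spred1 (-0.15 to 0.025), Spred2 (-0.083 to 0.13), Egfr (-0.23 to 0.044) and Etv5 (-0.058 to 0.37). So did Spry1 (-0.10 to 0.046), Spred1 (-0.066 to 0.20) and Egfr (-0.26 to 0.0081) at the medium dose, Spred2 (-0.067 to 0.093) at the high dose, and the high minus low dose differences of Dusp1 (-0.14 to 0.060) and Dusp10 (-0.062 to 0.12). Low signal over background limits Dusp5, Dusp10, Spry1, Spry2 and Spry4, and among the other family genes Dusp9, Spry3 and Spred3.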
